A study of Paxillus involutus and Laccaria bicolor with 24 samples.

Results

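The 100 *Laccaria bicolor* gene models described here peaked in mean level at time point t2, when ammonium in the medium was depleted. They were chosen among the 14352 models whose mean count reached 11, out of 23130 *L. bicolor* models and 41098 models of both species in the series. For each model, counts scaled to 1000000 counted reads per library (CPM) were averaged over the replicates of a time point and the 4 means were put on the log2(CPM + 1) scale. A model was eligible if no single step between neighbouring time points made up more than 0.6 of its summed change, which left 9117 models. The 100 with the greatest height of t2 above the highest of the other 3 time points were taken. The peak at t2 is therefore what chose the models, and its size is given as a description with no test.

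*L. bicolor* is an ectomycorrhizal basidiomycete that lives on tree roots and trades soil nitrogen for host sugar. The mycelium (strain S238N) was pre-grown on glass beads in Melin-Norkrans medium and starved of nitrogen, and it was then given a hot-water extract of soil organic matter (SOM) from a Norway spruce forest, supplemented with glucose. All 12 libraries shared this history, and there was no culture without the extract. Mycelium was sampled on day 2 (t1, active growth), day 13 (t2, ammonium depletion), day 23 (t3, glucose depletion) and day 30 (t4, prolonged glucose depletion), with 3 biological replicates each, so the age of the culture and its nutrient supply cannot be told apart. RNA came from whole mycelium, and fewer hyphae that express a gene cannot be told apart from less RNA per hypha.

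In many fungi ammonium is a preferred nitrogen source. While it is present, genes for the uptake and breakdown of other nitrogen sources, such as nitrate, amino acids, peptides and proteins, are kept at a low level, a control known as nitrogen catabolite repression that GATA-type transcription factors carry out in yeasts and filamentous ascomycetes. When ammonium runs out these genes are commonly derepressed, and a shortage of sugar acts through a separate control, carbon catabolite repression. No table used here pairs the *L. bicolor* gene models with proteins or functions. The members are therefore described by model name and rank of peak height, with no roles assigned, and the identity of the mycelium could not be checked against marker genes.

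The libraries held between 10598530 and 13187194 counted reads. The mean count of a member over the 12 libraries lay between 11.1 and 10574 with a median of 478, against 240 over all tested models. The mean count was below 50 for 14 members and above 1000 for 35, and no member had a count of 0 in any library. CPM is not adjusted for the length of a model, so the values compare libraries within a model, not the expression of different models.

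The members together took a larger share of the counted reads at t2 than at any other time point. They took 0.719, 0.744 and 0.796% of the counts in replicates 1 to 3 at t1, and 2.14, 1.94 and 2.09% at t2. The share was 0.733, 0.821 and 0.674% at t3 and 0.440, 0.470 and 0.424% at t4. The 3 libraries of t2 stood well above the other 9, those of t1 and t3 overlapped, and those of t4 were below all others. The means were 0.753% ± 0.039, 2.06% ± 0.105, 0.743% ± 0.074 and 0.445% ± 0.023 (SD, n = 3). One model, the member of rank 1, took 14.1% of the members' counts at t2, and without it the mean share at t2 was 1.77%.

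**Figure D1:**
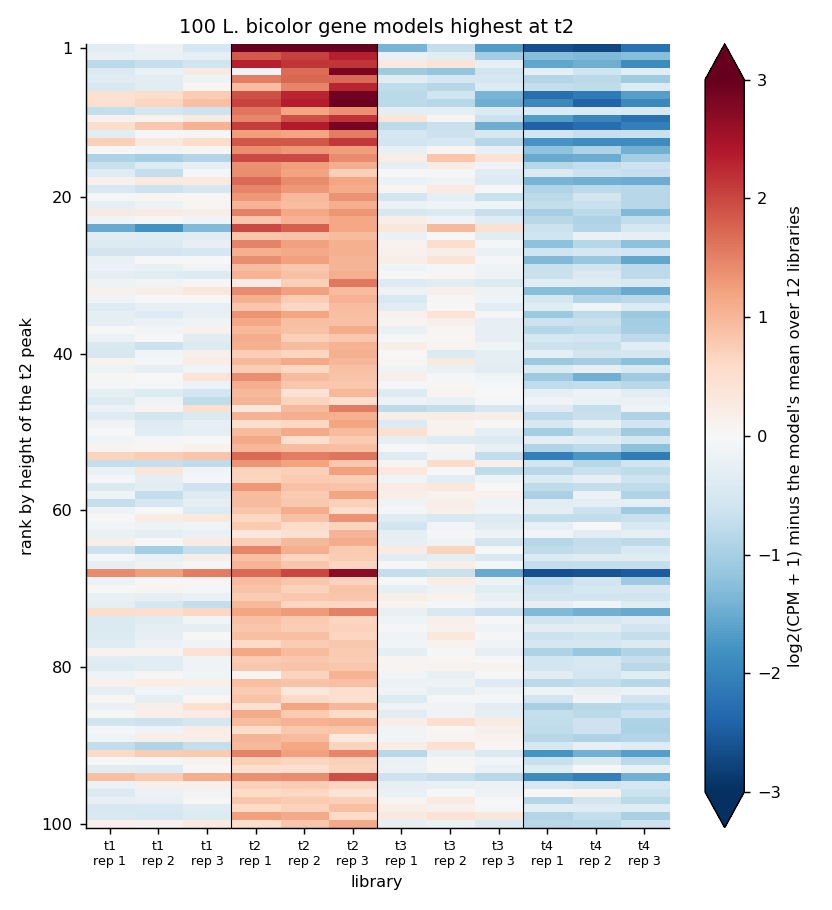
Level of the 100 members (rows, ordered by rank of peak height) in the 12 libraries (columns, by time point and replicate), as log2(CPM + 1) minus the mean of the model over the 12 libraries, with the colour scale capped at its ends. The 3 libraries of t2 are red for nearly every member, t4 is blue for most, and t1 and t3 lie between with members on either side.

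The height of the peak ranged from 0.65 to 4.48 on the log2(CPM + 1) scale with a median of 0.86, which corresponds to folds of 1.57, 22.3 and 1.82. It exceeded 2-fold in 32 members and 4-fold in 3, so most members peaked modestly. The values closest to the border were 0.66 and 0.65 for ranks 99 (estExt_fgenesh1_pg.C_LG_6_t10378) and 100 (fgenesh3_kg.LG_6_#_1089_#_Locus_4498_Transcript_2/2_Confidence_1.000), and 0.65 for both models just outside, Lacbi1.eu2.Lbscf0027g02030 and fgenesh1_pm.LG_10_#_623. The border thus cuts through a continuous range, and 2125 of all tested models (14.8%) had their highest mean CPM at t2. The limit on single steps left out 11 models that would otherwise have been among the top 100, 3 of them for a dominant rise to t2 and 8 for a dominant fall to t3. An example of the first kind was fgenesh1_pg.LG_10_#_498, with mean CPM of 13.3, 613, 217 and 112 from t1 to t4, and one of the second was gm1.8057_g, with 151, 405, 40.6 and 25.8 (both chosen after their values were seen).

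The member with the highest peak by far was fgenesh1_pg.LG_10_#_700 (rank 1). Its CPM was 129.9, 144 and 113 at t1, 3468, 2316 and 2893 at t2, 61.6, 98.5 and 50.5 at t3, and 25.3, 23.7 and 33.5 at t4. The groups did not overlap at any time point, with t2 highest, t1 next and t4 lowest. The log2 fold change fitted with edgeR was 4.48 (SE 0.18) from t1 to t2 and -5.40 (SE 0.19) from t2 to t3, and at t4 the level was lower than at t1 by a log2 change of -2.35 (SE 0.19). With the authors' factors for transcript length, G/C content and depth these were 5.06, -5.62 and -1.31. The change of t3 against t1 was -0.92 (SE 0.17), and with the authors' factors it was -0.56 and not called (adjusted p = 0.0113 in edgeR).

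Ranks 2 and 3 peaked at lower levels. Lacbi1.eu2.Lbscf0010g04800 (rank 2) had a CPM of 18.9, 19.1 and 17.9 at t1, 81.6, 94.7 and 115 at t2, 19.2, 17.2 and 10.3 at t3, and 8.58, 8.21 and 8.49 at t4. Its t2 libraries were far above the rest, t1 and t3 overlapped, and t4 was lowest. The log2 fold changes were 2.37 (SE 0.13) to t2 and -2.68 (SE 0.14) to t3, and with the authors' factors for transcript length, G/C content and depth they were 1.44 and -1.57. Lacbi1.eu2.Lbscf0036g00440 (rank 3) had 53.8, 57.8 and 61.7 at t1, 478, 421 and 419 at t2, 114, 123 and 78.8 at t3, and 31.5, 33.4 and 24.8 at t4. Here all 4 time points were separate, with t3 between t2 and t1, and the log2 fold changes were 2.92 (SE 0.12) to t2 and -2.10 (SE 0.11) to t3, or 3.72 and -2.58 with the authors' factors.

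Ranks 4 to 6 were models of low count, and 2 of them varied widely among the t2 cultures. The CPM of fgenesh3_kg.LG_1_#_3176_#_Locus_11249_Transcript_1/2_Confidence_1.000 (rank 4) was 0.985, 1.31 and 2.22 at t1, 1.49, 7.58 and 17.9 at t2, 0.282, 0.178 and 0.772 at t3, and 1.20, 0.755 and 1.138 at t4. Replicate 1 of t2, with 18 reads, lay within the range of t1, while replicates 2 and 3, with 88 and 205 reads, were above every other library, so the peak of rank 4 rested on 2 cultures. Its log2 fold change to t2 was 2.56 (SE 0.56), and between 1.57 and 3.07 when single libraries were left out, and with the authors' factors it was 2.08 and no longer called (adjusted p = 0.0246 in edgeR). For gm1.12703_g (rank 5) the CPM was 0.985, 1.07 and 1.30 at t1, 6.46, 7.50 and 7.41 at t2, 1.04, 0.803 and 0.772 at t3, and 0.401, 0.472 and 0.227 at t4. Its t2 cultures were close together and well above the rest, with a log2 fold change of 2.66 (SE 0.19). For gm1.1146_g (rank 6) the CPM was 2.15, 2.55 and 3.61 at t1, 7.45, 11.1 and 20.4 at t2, 1.60, 1.43 and 2.32 at t3, and 1.68, 1.60 and 2.35 at t4. The t2 cultures of rank 6 differed by 2.74-fold but remained above the rest, and t1, t3 and t4 overlapped.

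**Figure D2:**
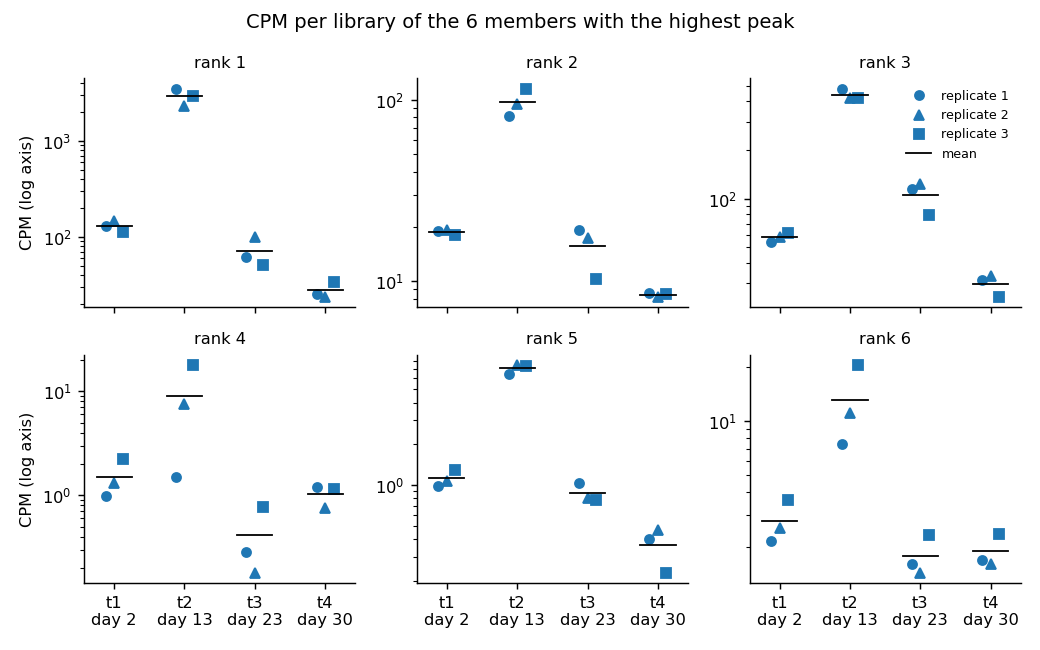
CPM (log axis, each panel with its own range) of the members of rank 1 to 6 by time point and day, with 1 symbol per replicate and the mean as a line. Ranks 1, 2, 3, 5 and 6 have all 3 symbols of t2 above every other library, whereas replicate 1 of rank 4 at t2 (1.49 CPM) lies among the values of t1.

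Besides rank 1, the members that drew most reads at t2 were ranks 19 and 20. The CPM of fgenesh2_kg.LG_2_#_77_#_contig09367 (rank 19) was 551, 486 and 537 at t1, 2101, 1889 and 1657 at t2, 799.6, 910.2 and 739.9 at t3, and 407, 441 and 430.5 at t4. All 4 time points were separate in CPM, with t3 above t1 and t4 below it. The order of t3 and t1 depended on the scaling. The log2 fold change of t3 against t1 was 0.60 (SE 0.08). With the authors' factors it was -0.39 and not called (adjusted p = 0.0324 in edgeR). The CPM of estExt_Genemark1.C_LG_1_t50438 (rank 20) was 622, 679 and 678 at t1, 1609, 1280.2 and 1655 at t2, 439.6, 528 and 406 at t3, and 367, 444 and 360.3 at t4. Here t2 was again separate, but t3 was already below t1 and overlapped t4. The log2 fold changes to t2 were 1.84 (SE 0.08) for rank 19 and 1.19 (SE 0.10) for rank 20, the second of which dropped to 0.49 with the authors' factors (adjusted p = 0.0429 in edgeR, over the limit of 1%).

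The 2 members with the tightest t2 cultures, differing by 1.02-fold and 1.04-fold, were ranks 48 and 82. The CPM of fgenesh3_kg.LG_7_#_678_#_Locus_302_Transcript_1/2_Confidence_1.000 (rank 48) was 47.7, 42.5 and 46.1 at t1, 131, 134 and 132 at t2, 72.1, 72.7 and 70.8 at t3, and 36.3, 39.1 and 32.9 at t4. That of Lacbi1.Eugenev2.0000010432 (rank 82) was 101.4, 107 and 105 at t1, 175, 168 and 174 at t2, 82.4, 84.2 and 71.2 at t3, and 52.7, 55.5 and 51.2 at t4. Both had 4 separate time points, and they differed in the place of t3, which was above t1 in rank 48 and below it in rank 82. The log2 fold changes to t2 were 1.54 (SE 0.06) and 0.72 (SE 0.06).

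With edgeR's quasi-likelihood test at a false discovery rate of 1%, all 100 members were called higher at t2 than at t1, where 17.9% of all tested models were, and all 100 were called lower at t3 than at t2, against 20.2%. All 100 were also called lower at t4 than at t2, against 26.5%. The rule used these differences, and nothing is read from the counts. The median log2 fold change of the members was 1.13 from t1 to t2 and -1.16 from t2 to t3, with a median SE of 0.105 for each, while the medians over all tested models were 0.01 and 0.02. The rule ranked the means of these same libraries, so the place of single libraries is a description too. In 97 members all 3 libraries of t2 were above the other 9, which was so for 5.04% of all tested models. The exceptions were rank 4, rank 47 (estExt_fgenesh1_pm.C_LG_8_t10339) and rank 85 (e_gw1.13.1760.1, whose lowest t2 library had 2.82 CPM and whose highest other library had 2.96).

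To read the peak in libraries that had not chosen the models, the rule was applied to 8 libraries and the 4 libraries of the remaining replicate number were held out. Of the 100 models chosen without replicate 1, 98 were highest at t2 in the held-out libraries, where 16.2% of all tested models were. Without replicate 2 the number was 99 (14.6% of all models), and without replicate 3 it was 100 (16.7%). Nearly every chosen model was thus highest at t2 again, in single cultures outside those 8 libraries. The lists were made with earlier results of these data known, and they differ from the members. A held-out peak over 0.5 on the log2(CPM + 1) scale was found in 77, 87 and 82 of the chosen models, against 1.51, 1.32 and 1.80% of all. The median height was 0.85, 0.93 and 0.88 in the libraries that made the choice and 0.87, 0.76 and 0.83 in the held-out ones, so it dropped most when replicate 2 was held out. The 3 lists shared 83, 90 and 86 models with the members.

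The models that failed to repeat were fgenesh1_pg.LG_1_#_299 and fgenesh3_kg.LG_1_#_3563_#_Locus_16623_Transcript_1/2_Confidence_1.000 in replicate 1, with heights of -0.23 and -0.05, and e_gw1.2.248.1 in replicate 2, with -0.22 (named after their values were seen). In the held-out libraries of each replicate number the median over all tested models was -0.32, and all but these 3 of the chosen models were above 0.

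**Figure D3:**
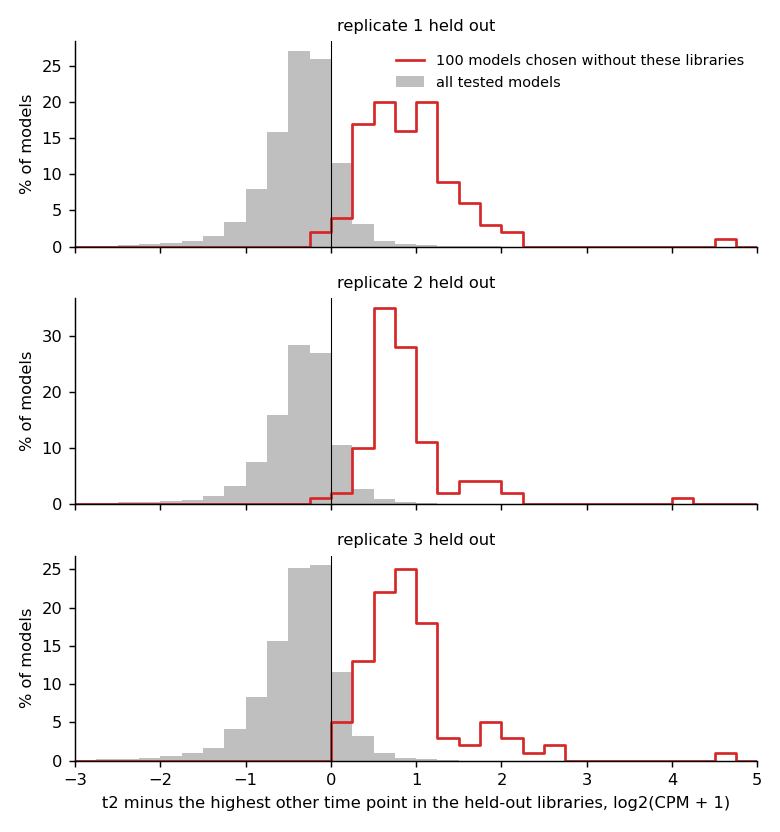
Height of t2 above the highest other time point, log2(CPM + 1), in the 4 libraries of 1 replicate number, for the 100 models chosen from the other 8 libraries (red line) and for all tested models (grey bars), as the percent of models per bin. The grey distributions centre near -0.32, and the chosen models centre near 0.87, 0.76 and 0.83 for replicates 1, 2 and 3.

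After the peak the members lay on both sides of their t1 level. At t3 the median was the same as at t1, a difference of 0.00 on the log2(CPM + 1) scale, with 50 members above and 50 below. In edgeR 24 were called higher at t3 than at t1 (27.9% of all tested models were) and 24 lower (27.2%), and 52 were not called, so neither share was above that of all models. By t4 most had dropped further: t4 was the lowest time point of 82 members, while t1 was lowest in 14 and t3 in 4. Over all tested models these shares were 21.1, 40.3 and 16.9%, but t2 could not be lowest in a member, as it was in 21.7% of all models. From t3 to t4, 72 were called lower, against 9.35% of all models, and the median log2 fold change was -0.83. Compared with t1, 68 members were called lower at t4 (30.4% of all models) and 1 higher (30.9%), with a median of -0.72. The limit on single steps constrains these later changes, and all of them enter the rule.

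The members are given by their call of t3 against t1, which is the sum of the rise and the fall, so the sizes of those steps follow in part from this division and from the rule. In the 24 members called higher at t3 than at t1 the median log2 fold change was 1.61 to t2, -0.93 to t3 and -0.94 from t3 to t4, and all 24 were called lower at t4 than at t3. Against t1 at day 30, 13 of them were called lower, 10 were not called and 1 was called higher. In the 24 members called lower at t3, the medians were 0.84 and -1.79, and all were called lower than t1 at t4 too. These include rank 1, whose call at t3 was lost with the authors' factors. In the 52 without a call they were 1.09 and -1.09, and 31 of them were called lower than t1 at t4. With the authors' factors 13 members, not 24, were called higher at t3 than at t1.

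The 2 members that stayed highest at t3 relative to t1 were ranks 24 and 15. The CPM of fgenesh3_kg.11_#_21_#_Locus_3210_Transcript_4/4_Confidence_0.700 (rank 24) was 13.0, 10.3 and 14.7 at t1, 155, 137 and 87.7 at t2, 49.1, 76.2 and 53.1 at t3, and 24.3, 20.4 and 26.4 at t4. Its 4 time points were separate and t1 was the lowest, with log2 fold changes of 3.33 (SE 0.19) to t2 and 2.201 (SE 0.20) for t3 against t1, or 4.26 and 2.36 with the authors' factors. It was the member called higher at t4 than at t1 (0.79, SE 0.23), a call that was lost with the authors' factors and when replicate 1 or 2 of t1 or replicate 1 or 3 of t4 was left out. The CPM of fgenesh1_kg.24_#_24_#_1325526:1 (rank 15) was 33.7, 31.8 and 35.3 at t1, 260.4, 259 and 175 at t2, 76.1, 116 and 88.5 at t3, and 22.0, 22.6 and 31.5 at t4. For rank 15 t3 stayed above t1 and t4 returned slightly below it. This last difference was not called, at -0.52 (SE 0.17, adjusted p = 0.0106 in edgeR), or -0.18 with the authors' factors (adjusted p = 0.778). It was called under 8 other settings. Its log2 fold changes to t2 and on to t3 were 2.78 (SE 0.15) and -1.34 (SE 0.13), or 3.87 and -3.06 with the authors' factors. The log2 fold change was 1.44 (SE 0.15) for t3 against t1 and -1.97 (SE 0.16) from t3 to t4, and with the authors' factors these were 0.81 and -0.99 and no longer called (adjusted p = 0.177 and 0.207 in edgeR).

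The members that ended lowest at t3 relative to t1 were ranks 68 and 11, whose names carry linkage group 9. The CPM of fgenesh2_kg.LG_9_#_37_#_contig09509 (rank 68) was 254, 227 and 274 at t1, 309, 382 and 614 at t2, 57.5, 59.4 and 32.2 at t3, and 14.3, 14.7 and 16.0 at t4. For rank 68 the rise was small beside the later fall and varied among cultures, with log2 fold changes of 0.79 (SE 0.18) to t2 and -3.17 (SE 0.20) to t3. With DESeq2 the rise was of the same size, 0.77, but not called (adjusted p = 0.0186). With the authors' factors in edgeR it was smaller, 0.40, and not called (adjusted p = 0.0298), and the fall to t3 was -2.05. The CPM of fgenesh1_kg.LG_9_#_56_#_1325642:1 (rank 11) was 106, 129 and 151 at t1, 309, 382 and 529.7 at t2, 41.6, 45.9 and 25.7 at t3, and 12.8, 14.2 and 16.9 at t4. The 4 time points of both members were separate and fell in the order t2, t1, t3 and t4, and replicate 3 was the highest at t2 and the lowest at t3. The log2 fold changes of rank 11 were 1.66 (SE 0.16) to t2 and -3.47 (SE 0.18) to t3, or 1.05 and -2.16 with the authors' factors.

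On the log2(CPM + 1) scale the change from t3 to t4 was lowest in ranks 10 and 15 and highest in ranks 4 and 47. The CPM of e_gw1.1.11004.1 (rank 10) was 11.3, 11.1 and 12.5 at t1, 29.6, 41.5 and 48.8 at t2, 13.3, 10.8 and 6.09 at t3, and 2.49, 1.89 and 1.36 at t4. Its t1 and t3 overlapped and t4 was far below, with a log2 fold change of -2.47 (SE 0.31) from t3 to t4. The CPM of rank 47 was 43.3, 51.5 and 68.0 at t1, 61.5, 96.9 and 143 at t2, 28.1, 29.3 and 34.2 at t3, and 36.7, 29.2 and 44.4 at t4. For rank 47 t2 overlapped t1 and t4 overlapped t3. Its log2 fold changes were 0.89 (SE 0.20) to t2, not called with DESeq2 (adjusted p = 0.0132), and 0.19 (SE 0.23) from t3 to t4.

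**Figure D4:**
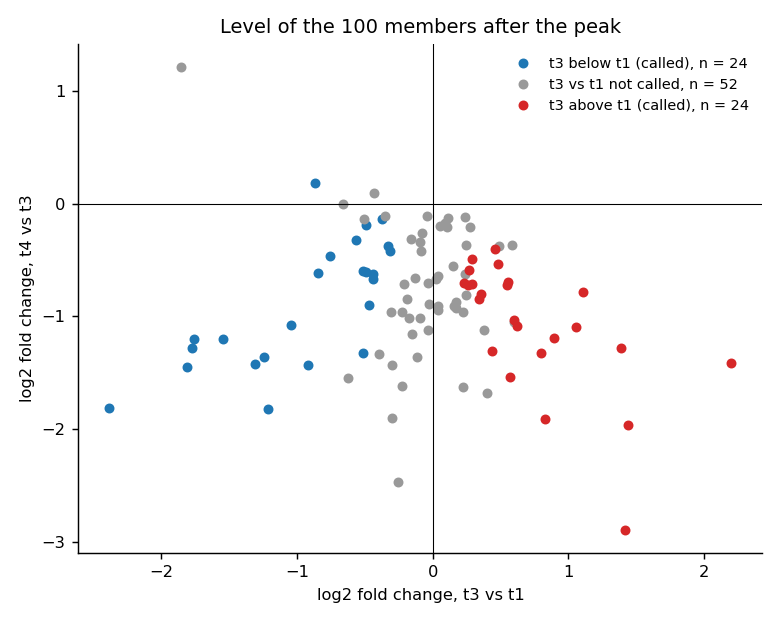
Log2 fold change of t3 against t1 (horizontal axis) and of t4 against t3 (vertical axis) from edgeR, 1 point per member, coloured by the call of t3 against t1 at a false discovery rate of 1%. The members spread evenly to the left and right of 0 (24 called on each side), and nearly all lie below 0 on the vertical axis; the highest point is rank 4, at 1.21 (SE 1.17), and the lowest is rank 57 (Lacbi1.estExt_fgenesh2_pg.C_340065), at -2.89 (SE 0.46).

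The rule used the means of the time points, and a mean at t2 can be raised by 1 or 2 high cultures, as in rank 4, so the spread at t2 is not independent of the choice and is given as a description. The median SD of log2(CPM + 1) among the 3 cultures of t2 was 0.18 over the members and 0.10 over all tested models. At t1 the medians were 0.12 and 0.09, at t3 0.16 and 0.10, and at t4 0.13 and 0.09. The median spread of the members was thus above that of the tested models at each time point, with the widest gap at t2, where the highest and lowest cultures differed by more than 2-fold in 6 members and in 2.50% of all models. The spread is not adjusted for the mean count, and 65 of the members had a mean count above the median of all models.

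Some cultures lay above or below the mean of their time point for most of the members. Replicate 3 of t1 was above the time point's mean for 81 of the members and for 49.1% of all tested models, and replicate 2 of t3 was above it for 83 (49.8% of all models). Replicate 3 of t3 was above its mean for 21 members (48.3% of all models). The other 2025 models that were highest at t2 leaned the same way, at 64.1, 64.1 and 36.6% for the same 3 libraries. With the authors' factors the numbers of members were 77, 76 and 18. The median deviation of the members was 0.08 in replicate 3 of t1, 0.13 in replicate 2 of t3 and -0.10 in replicate 3 of t3 on the log2(CPM + 1) scale, which is small beside the median peak of 0.86. Replicate 3 of t1 was the smallest library of its time point, with 10797314 counted reads, and replicate 3 of t3 the largest of its own, with 11651765. Replicate 2 of t3 was in the middle of its time point, with 11213208. The smallest library of t3 was replicate 1, with 10620829, and it was above the mean for 47 members. The part of depth in these deviations was not tested.

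**Figure D5:**
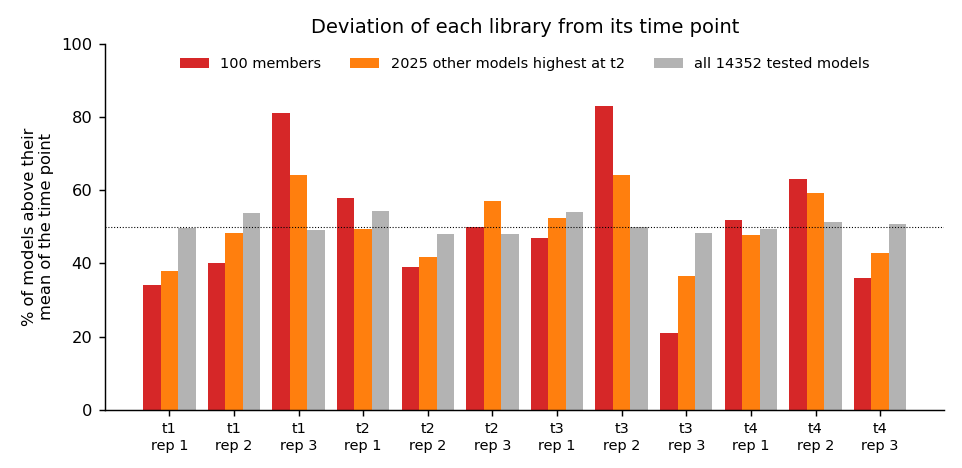
Percent of models above their mean of the time point, on the log2(CPM + 1) scale, in each of the 12 libraries, for the 100 members (red), the 2025 other models highest at t2 (orange) and all 14352 tested models (grey); the dotted line marks 50%. The red bars reach 81 for replicate 3 of t1 and 83 for replicate 2 of t3 and drop to 21 for replicate 3 of t3, while the grey bars stay near the line.

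Within t2, replicate 1 was the highest culture for 46 members, replicate 2 for 14 and replicate 3 for 40, against 38.4, 27.5 and 34.2% of all models. Among the 24 members called higher at t3 than at t1, replicate 1 was the highest t2 culture for 15 and replicate 3 for 4. Among the 24 called lower at t3 the counts were 10 and 13. This division was made after the values were seen and was not tested, and the same counts are not given for all tested models.

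Some members had similar profiles. Ranks 7 (estExt_fgenesh2_kg.C_LG_90023), 8 (estExt_fgenesh3_kg.C_LG_9_t10263) and 11 all carry linkage group 9 in their names. Rank 7 had a CPM of 145, 154 and 181 at t1, 404, 516 and 792 at t2, 60.1, 69.4 and 39.8 at t3, and 21.2, 23.6 and 33.3 at t4. Rank 8 had 100.4, 113 and 135 at t1, 294, 368 and 555 at t2, 41.2, 39.1 and 25.4 at t3, and 18.0, 12.6 and 17.8 at t4. For all 3 members replicate 3 was the highest culture of t1 and t2 and the lowest of t3. Pearson's r between them was 0.995 to 0.997 over the 12 libraries, which they share, and they were picked for this likeness after the values were seen. The rule chose every member for a peak at t2, so a high r between members is partly built in. Ranks 1 and 70 had an r of 0.992, although their count ratio ranged from 0.398 to 22.4. The count ratio ranged from 1.17 to 1.87 for ranks 7 and 8, 1.19 to 1.97 for ranks 7 and 11, and 0.85 to 1.41 for ranks 8 and 11. A second pair, e_gw1.15.194.1 (rank 26) and fgenesh3_kg.15_#_23_#_Locus_4771_Transcript_2/3_Confidence_0.667 (rank 35), had an r of 0.999, and the count of the first was between 0.315 and 0.417 of that of the second in every library. Whether such models are near-identical copies could not be checked without their sequences. The authors allowed 1 transcriptome hit per read, so no read was counted on 2 models. How reads of near-identical copies were placed was not checked, so their separate counts are uncertain.

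The names of 37 members carry a linkage group, as do those of 4792 tested models. Linkage group 8 held 6 members of 238 tested models (2.52%), group 9 held 6 of 264 (2.27%) and group 1 held 5 of 1218 (0.411%). These counts are small. Some names carry a model number after the group, but positions within a group were not read from them. Whether models in 1 group are similar copies was not checked.

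The peak was also read in the authors' own normalized values. In the regularized log (rlog) values, which lie on a log2 scale and shrink the differences of low counts, all 100 members were highest at t2, as were 18.6% of the 14476 models in that table. Their height ranged from 0.18 to 3.34 with a median of 0.53. With the authors' factors all 100 members were highest at t2 (18.7% of all models), the median height was 0.86, the lowest was 0.295, and in 93 members the 3 libraries of t2 were above the other 9. These tables come from the same 12 libraries and add no new cultures.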

How the data were processed

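The authors removed ribosomal reads, aligned single-end reads to the *L. bicolor* gene models with TopHat2 (version 2.0.13, with Bowtie2 version 2.2.3.0), allowing 1 transcriptome hit per read, and counted reads on coding sequence by strand with HTSeq (version 0.6.1). The deposited counts are not normalized. The authors also deposited rlog values (log2 scale) and factors per model and library, normalization ratios for length, G/C content and depth made with EDASeq and DESeq2.

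CPM used column sums. Time points were compared with TMM and edgeR's quasi-likelihood test (version 4.0.16, R version 4.3.3) on all 12 *L. bicolor* libraries, with Benjamini-Hochberg adjustment over 14352 models at 1%. With 3 libraries against 3 no exact permutation p can be below 0.1, and calls rest on the fitted model. The fit was tested on simulated counts first. Alternatives were DESeq2 (version 1.42.0), other scalings and filters, the replicate number as a block and leaving out single libraries.

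The members and lists were chosen with earlier results of these data known. Named members were ranks 1 to 6, the 3 with most CPM at t2, the 2 extremes of t2 spread, of t3 minus t1 and of t4 minus t3, and the ranks at the border. Other models were named after their values were seen. *Paxillus involutus* counts served only to number its models, and annotations and sequences were not used here.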

Additional observations from a re-analysis of the deposited data

How the results depend on the processing

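The list depended on the scaling. It shared 60 models with the list made with the authors' factors and 55 with that from rlog values. With other scalings, pseudocounts, count minimums, step limits and medians it shared 67 to 96, and with single libraries left out 86 (without replicate 3 of t2) to 100. Rank 1 stayed first in every list, and 30 members were in all 24. With the authors' factors 13 members were called higher at t3 than at t1 and 0 at t4 than at t1, with 0 to 1 at t4 when single libraries were left out. When single libraries were left out, 98 to 100 members were called higher at t2 than at t1, 16 to 25 higher and 19 to 26 lower at t3 than at t1, 65 to 75 lower at t4 than at t3, and 64 to 71 lower at t4 than at t1. With the authors' factors 91 members were called higher at t2 than at t1 and 92 lower at t3 than at t2. Over the settings that kept all libraries, including a false discovery rate of 5%, the later counts ranged more widely. There 53 to 77 members were called lower at t4 than at t3, and 60 to 76 lower at t4 than at t1. Without the most abundant member the share of counts at t2 was 1.77%. DESeq2 gave no adjusted p for 9 members at t4 against t3.

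Replicate numbers showed no strong pairing of the libraries: deviations of libraries with the same number correlated at -0.05 to 0.13, others at -0.12 to 0.06. The extremes were between t3 and t4, at 0.13 for replicate 3 and 0.10 for replicate 2. The crossed pairs of these libraries were at -0.12 and -0.10, and a weak link between t3 and t4 was not tested. With the replicate block 100 members were called higher at t2 than at t1, 23 higher and 25 lower at t3 than at t1, and 72 lower at t4 than at t3. Of 1054 values for 62 changes of 18 named members under 17 settings, 1027 kept their direction and side of the threshold, 19 lost the call, 8 gained it and 0 reversed. The change of rank 19 from t1 to t3 was not among these 62, and its sign reversed with the authors' factors. Of the lost calls 12 were at t4 against t1, 5 of rank 24 and 7 of rank 47. Low counts limit 14 members with a mean count under 50.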
